A study of Mus musculus with 30 samples.

Results

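Sialyltransferases are the enzymes that cap sugar chains with sialic acid. The 10 described here are St3gal1, St3gal3, St3gal4, St3gal6, St6gal1, St6galnac1, St6galnac2, St6galnac3, St6galnac4 and St6galnac6, taken by gene name from a table of 14475 mouse gene models measured in the colon. They fill 11 entries of that table, because St6galnac2 is listed under 2 gene models. Of these entries, 10 reached the mean of 0.5 FPKM (fragments per kilobase of gene per M mapped reads) needed for testing, and St6galnac3 did not.

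Pieces of colon from female mice gave 30 RNA-seq libraries, made after removal of ribosomal RNA. Each region, ascending and descending, gave 8 libraries from mutants and 7 from controls, drawn from 3 cages that shared 1 microbiota. The mutants are labelled TM-DKOAsc. By the protocol they were C1galt1f/f;VillinCre-ERT2;C3GnT-/-, that is, floxed for C1galt1 (core 1 O-glycan synthase), carrying a Cre that tamoxifen activates and that the Villin promoter limits to gut epithelial cells, and without functional C3GnT (core 3 synthase, gene name B3gnt6). Other cells in a piece of colon therefore keep C1galt1. Controls were wild-type littermates. Both genotypes were injected with tamoxifen on 5 days (0.5 mg per day, near 20 mg/kg) and examined 5 or 10 days after the last dose. The labels do not say which interval belongs to which library. Cage A (10 libraries, mice of 3.4 months) carries the strain label C57BL/6 Background, and cages B (2.6 months) and C (3.2 months), with 10 libraries each, carry the label Mixed BL/6-129SvJ, whereas the protocol describes a mixed background for all mutants and littermates. Replicates are named by cage and number. The labels do not tie the ascending and descending libraries to animals, so that p-values measure the spread between these samples.

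Sialic acid sits at the outer end of glycans on mucins, membrane proteins and glycolipids, where it adds negative charge and is read by lectins and by microbes. The ST3GAL and ST6GAL enzymes place it on galactose, through different linkages, and the ST6GALNAC enzymes place it on N-acetylgalactosamine, the sugar that starts every mucin-type O-glycan. In the colon much of the secreted sialic acid is carried by the O-glycans of goblet cell mucin.

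The estimated depth was 1.43 to 8.86 M reads, lowest in the 3 ascending mutants of cage A. The epithelial marker genes Epcam and Vil1 were at 322.4 to 1011 and 189.2 to 425.7 FPKM over the 30 libraries. C1galt1 was at 18.3 to 34.3 FPKM in ascending mutants and 21.5 to 45.7 FPKM in ascending controls, and at 14.6 to 36.7 FPKM in descending mutants and 28.0 to 38.7 FPKM in descending controls, so the ranges overlapped. B3gnt6 was at 0 to 0.53 FPKM (median 0) in ascending mutants and 0.11 to 19.5 FPKM (median 0.45) in ascending controls, and at 0 to 0.06 FPKM (median 0) in descending mutants and 0 to 0.43 FPKM (median 0.06) in descending controls, and these ranges overlapped too. Ascending control B1 and descending control A2 stood apart from their groups for several sialyltransferases, and the regional counts in controls are given with and without them.

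The promoters of St3gal6 and St6galnac4 are printed because these were the members whose levels separated the regions without overlap in both genotypes. The windows run from 250 bases before to 50 bases after the start site, from RefSeq on GRCm38.p6, and 7 of the 10 genes had such a window. Capitals mark matches, on either strand, to the motif TTTAT, the motif AGATAA, the motif GGGCGG or the motif TATAAA. The St3gal6 window is chr16:58524204-58524503 on the minus strand, and the St6galnac4 window is chr2:32586828-32587127 on the plus strand.
St3gal6: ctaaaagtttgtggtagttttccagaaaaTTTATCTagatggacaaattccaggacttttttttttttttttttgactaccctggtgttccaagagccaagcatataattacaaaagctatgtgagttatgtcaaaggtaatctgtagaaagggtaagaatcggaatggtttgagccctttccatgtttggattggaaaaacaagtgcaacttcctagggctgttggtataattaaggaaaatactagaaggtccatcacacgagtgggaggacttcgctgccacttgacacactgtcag
St6galnac4: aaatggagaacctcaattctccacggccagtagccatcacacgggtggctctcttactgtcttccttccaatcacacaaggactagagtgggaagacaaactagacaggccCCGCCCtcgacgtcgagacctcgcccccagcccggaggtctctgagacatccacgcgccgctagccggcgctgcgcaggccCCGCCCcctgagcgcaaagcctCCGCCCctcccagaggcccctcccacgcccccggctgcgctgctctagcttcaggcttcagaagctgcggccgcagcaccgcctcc

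The pair differ in base composition and in part of the motifs. Each window also holds 1 CAAAG, which is left in lower case and is found in 53.9% of all windows. GC content was 38.7% in the St3gal6 window and 65.7% in the St6galnac4 window, against a median of 52.7% and quartiles of 45.7 and 61.7% over 32851 promoters. The St3gal6 window holds 1 TTTAT and 1 AGATAA, which overlap, and no GGGCGG. The St6galnac4 window holds 3 GGGCGG, all on the reverse strand, and neither TTTAT nor AGATAA. Of all windows, 40.0% hold TTTAT, 11.2% hold AGATAA and 35.7% hold GGGCGG.

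On the FPKM scale, which is per length, St6galnac6 and St3gal4 were the most abundant members. St6galnac6 ran from 77.7 to 186.9 FPKM over the 30 libraries and St3gal4 from 19.0 to 260.8 FPKM, and these ranges overlap. St6galnac3, which adds sialic acid to the N-acetylgalactosamine of sialylated core 1 and of gangliosides, was at 0.00 to 0.17 FPKM in all 30 libraries. Summed over the 11 entries, the level was 159.7 to 306.4 FPKM (median 239.2) in ascending mutants, 202.1 to 559.7 (median 221.0) in ascending controls, 319.5 to 547.5 (median 380.4) in descending mutants and 323.4 to 644.9 (median 383.5) in descending controls.

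**Figure D1:**
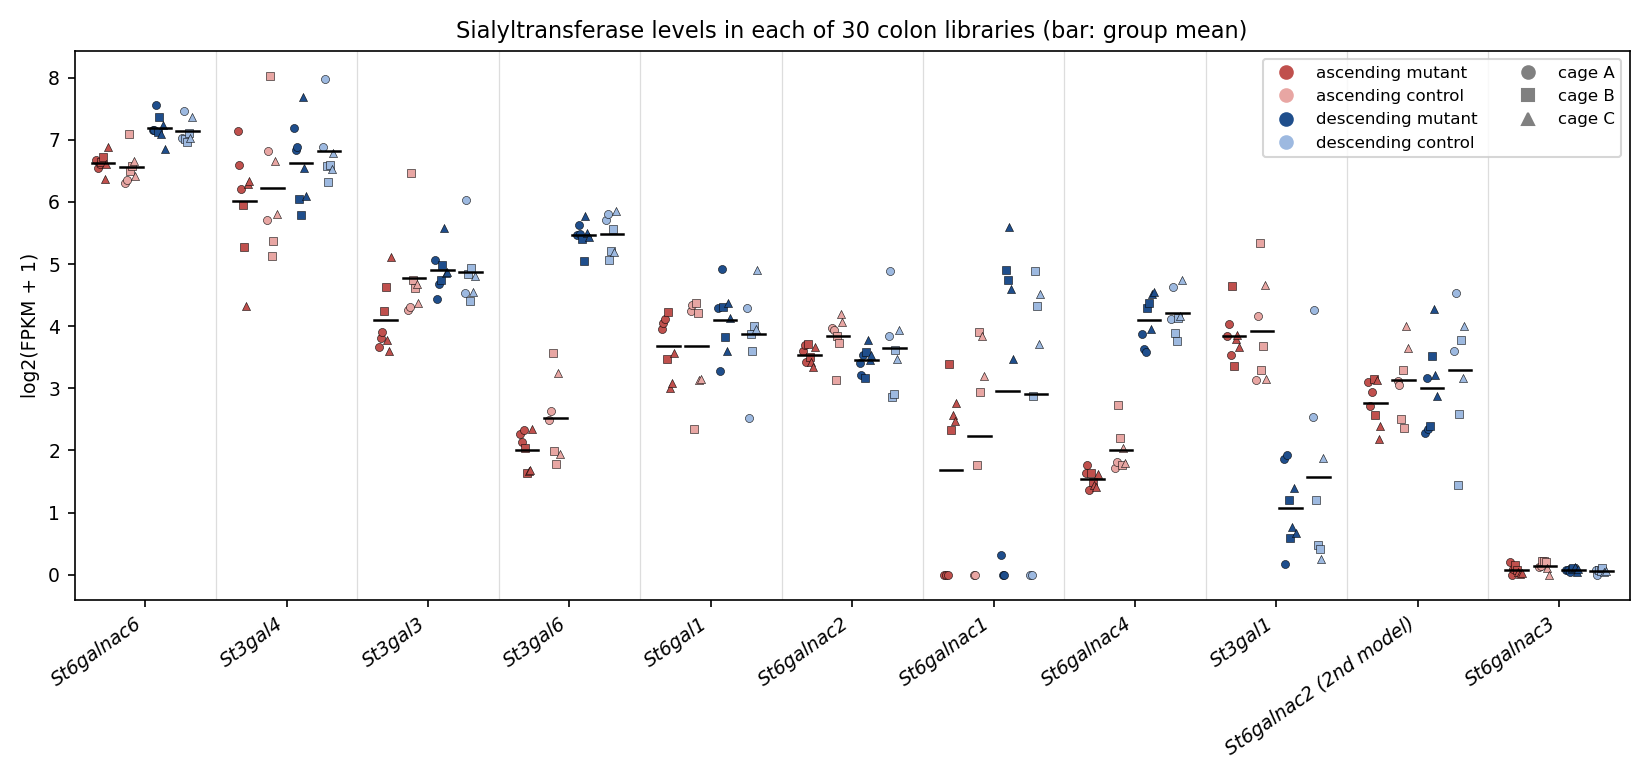
Level of each sialyltransferase, as log2(FPKM + 1), in each of 30 libraries, with ascending and descending groups side by side; bars are group means and marker shapes are cages. St3gal6 and St6galnac4 sit lower in all ascending groups than in descending groups, and St6galnac1 is at or near 0 in cage A.

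Among members the largest difference between regions was in St3gal6 (ENSMUSG00000022747.17; chr16:58468125-58524243, minus strand), which sialylates the galactose ends of lactosamine chains. In mutants it was at 2.11 to 4.08 FPKM (median 3.26) in the ascending colon and at 32.0 to 53.7 FPKM (median 43.4) in the descending colon. In controls the ranges were 2.43 to 10.9 FPKM (median 4.60) in the ascending colon and 32.5 to 57.0 FPKM (median 46.4) in the descending colon. No ascending library reached any descending library, in any of the 3 cages. Mean FPKM in the ascending colon was lower by 14-fold in mutants and 8.37-fold in controls. The log2 difference, ascending minus descending, was -3.45 ± 0.12 (SE) in mutants (limma adjusted p = 8.91e-13) and -2.97 ± 0.27 in controls (adjusted p = 2.68e-06). Of its span of 56119 bases, 1603 overlap the span of Dcbld2 on the opposite strand. Without a stated strand of counting, reads from that stretch cannot be assigned to one gene or the other.

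St6galnac4 (ENSMUSG00000079442.12; chr2:32587095-32599698, plus strand) adds a second sialic acid to sialylated core 1 and also acts on glycolipids. In mutants it was at 1.57 to 2.40 FPKM (median 1.95) in the ascending colon and 11.1 to 22.3 FPKM (median 16.5) in the descending colon. In controls it was at 2.28 to 5.66 FPKM (median 2.50) in the ascending colon and 12.5 to 25.8 FPKM (median 16.5) in the descending colon. The ranges did not overlap in either genotype. The log2 difference was -2.55 ± 0.13 in mutants (limma adjusted p = 1.57e-10) and -2.20 ± 0.19 in controls (adjusted p = 2.07e-06). Genes lower in every ascending library than in every descending library made up 7.27% of those tested in mutants and 6.89% in controls.

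St3gal1 (ENSMUSG00000013846.10; chr15:67102875-67176830, minus strand), which sialylates core 1 O-glycans, went the other way. In mutants it was at 9.26 to 24.1 FPKM (median 13.1) in the ascending colon and 0.13 to 2.79 FPKM (median 1.01) in the descending colon. In controls it was at 7.75 to 39.7 FPKM (median 11.8) in the ascending colon and 0.19 to 18.1 FPKM (median 1.30) in the descending colon. The regions did not overlap in mutants, where 5.62% of genes were higher in every ascending library (3.83% in controls). In controls they overlapped through descending control A2, at 18.1 FPKM, and the other 6 descending controls were at 4.83 FPKM or less. The log2 difference was 2.77 ± 0.25 in mutants (limma adjusted p = 1.38e-07) and 2.35 ± 0.54 in controls (adjusted p = 0.00386). Without cage B the difference in controls was 1.55 and did not pass (limma adjusted p = 0.158).

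Smaller regional differences were measured for 3 further members. St6galnac6 (ENSMUSG00000026811.18; chr2:32599709-32620806, plus strand), next to St6galnac4 and known for sialylating glycolipids, was at 81.8 to 117.0 FPKM (median 97.9) in ascending mutants and 115.1 to 186.9 (median 141.7) in descending mutants. In controls it was at 77.7 to 135.9 FPKM (median 89.7) in the ascending colon and 124.0 to 176.2 (median 129.9) in the descending colon. It was lower in the ascending colon, by -0.56 ± 0.11 in mutants (limma adjusted p = 5.60e-04) and -0.58 ± 0.14 in controls (adjusted p = 0.00516), and the ranges overlapped in both genotypes. Median-of-ratios scaling, which moves the median of all genes by 0.12 in mutants and 0.14 in controls on the log2 scale, gave -0.41 for St6galnac6 in controls (limma adjusted p = 0.0603), and leaving out cage C gave adjusted p = 0.0517.

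St3gal3 (ENSMUSG00000028538.12; chr4:117932154-118134914, minus strand), which sialylates lactosamine chains, was at 11.1 to 33.8 FPKM (median 13.5) in ascending mutants and 20.7 to 46.8 (median 28.1) in descending mutants. In controls it was at 18.2 to 87.6 FPKM (median 23.6) in the ascending colon and 20.1 to 64.6 (median 27.0) in the descending colon. It was lower in the ascending colon of mutants (-0.81 ± 0.20, limma adjusted p = 0.00329), a call that did not hold without cage A (adjusted p = 0.0657). The difference in controls was -0.10 ± 0.33 (limma adjusted p = 0.843). The 2 differences were not shown to differ from each other (-0.56 ± 0.37, limma adjusted p = 1.00).

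St6galnac1 (ENSMUSG00000009588.9; chr11:116765025-116775507, minus strand), which adds sialic acid to the first sugar of O-glycans and is known from goblet cells, was at 0.00 to 9.55 FPKM (median 4.31) in ascending mutants and 0.00 to 47.5 FPKM (median 16.7) in descending mutants. In controls it was at 0.00 to 14 FPKM (median 6.65) in the ascending colon and 0.00 to 28.6 FPKM (median 12.1) in the descending colon, and the ranges overlapped in both genotypes. The overlap in mutants came only through the libraries of cage A, and in controls cages B and C overlapped as well. It was lower in the ascending colon of mutants (-1.26 ± 0.31, limma adjusted p = 0.00392). The call did not hold without cage C (-0.85, adjusted p = 0.0714) or without the cage covariate (adjusted p = 0.262), and without cage A, where the gene was at or near 0, the difference was -1.96 (adjusted p = 0.00126). In controls it was -0.67 ± 0.35 (limma adjusted p = 0.152). The difference between the genotypes was -0.76 ± 0.44 (limma adjusted p = 1.00).

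The other members did not pass in either genotype with all libraries. St3gal4 (ENSMUSG00000032038.7; chr9:35046576-35119268, minus strand), another enzyme of lactosamine chains, was at 19.0 to 140.6 FPKM (median 74.9) in ascending mutants and 54.1 to 206.1 FPKM (median 102.4) in descending mutants, and at 34.1 to 260.8 FPKM (median 55.1) in ascending controls and 78.8 to 251.9 FPKM (median 96.0) in descending controls. The ranges overlapped, and the log2 difference was -0.62 ± 0.30 in mutants and -0.60 ± 0.40 in controls (limma adjusted p = 0.0993 and 0.253). Without ascending control B1 the difference in controls was -0.97 and passed (limma adjusted p = 0.00703). St6gal1 (ENSMUSG00000022885.16; chr16:23224740-23360350, plus strand), the enzyme that caps N-glycans, was at 6.99 to 17.8 FPKM in ascending mutants and 8.69 to 29.4 FPKM in descending mutants, and at 4.10 to 19.7 FPKM in ascending controls and 4.74 to 28.9 FPKM in descending controls. Its ranges overlapped, and the log2 difference was -0.41 ± 0.21 in mutants and -0.19 ± 0.39 in controls (limma adjusted p = 0.133 and 0.725). Without descending mutant A2 the difference in mutants was -0.57 and passed (limma adjusted p = 0.0133). St6galnac2 (ENSMUSG00000057286.6; chr11:116675303-116694868, minus strand), an O-glycan enzyme, was at 9.13 to 12.1 FPKM in ascending mutants and 7.98 to 12.7 FPKM in descending mutants, and at 7.77 to 17.4 FPKM in ascending controls and 6.27 to 28.7 FPKM in descending controls. Its ranges overlapped, and the log2 difference was 0.08 ± 0.10 in mutants and 0.19 ± 0.21 in controls (limma adjusted p = 0.531 and 0.483). With array quality weights the difference in controls was 0.43 and passed (limma adjusted p = 0.0238), as did 6232 of 12515 genes in that fit. Its second model (ENSMUSG00000110170.1; chr11:116677483-116681290, minus strand) differed by -0.24 ± 0.26 in mutants and -0.16 ± 0.33 in controls (limma adjusted p = 0.473 and 0.738). That second model lies within the first and shares 383 of its 1683 exonic bases with it, and reads from those bases cannot be assigned to one or the other. The span of the first model also overlaps that of 1810032O08Rik on the opposite strand, by 497 bases.

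In all, 6 of 10 tested entries passed in mutants, 1 higher and 5 lower in the ascending colon, against 44.0% of 12203 genes (14.3% higher, 29.7% lower). In controls 4 of 10 passed, 1 higher and 3 lower, against 37.9% of 12515 genes (12.8% higher, 25.1% lower). The median log2 difference over the 10 entries was -0.59 in mutants and -0.39 in controls, against -0.16 and -0.14 over all genes. Both counts lie near the background shares. Smooth muscle markers, 8 of 8 measured, summed to 20.1 to 66.2 FPKM in ascending mutants and 41.4 to 283.0 FPKM in descending mutants, and to 29.1 to 429.7 FPKM in ascending controls and 32.6 to 437.4 FPKM in descending controls. Of the 8, 1 passed as higher and 7 as lower in the ascending colon of mutants, and 1 and 0 in controls. By sign alone, 7 of the 8 were lower in controls too. Colonocyte markers, 12 of 12 measured, summed to 14810 to 23880 FPKM in ascending mutants and 2154 to 4989 FPKM in descending mutants, and to 8859 to 16470 FPKM in ascending controls and 2189 to 5820 FPKM in descending controls. Of the 12, 8 passed as higher and 3 as lower in the ascending colon of mutants, and 8 and 2 in controls. By sign alone, 4 of the 12 were lower in each genotype. T cell markers summed to 8.22 to 32.15 FPKM in ascending mutants and 0.50 to 2.01 FPKM in descending mutants. In controls they summed to 12.44 to 55.55 FPKM in the ascending colon and 0.83 to 2.59 FPKM in the descending colon. All 6 tested T cell markers passed as higher in the ascending colon in both genotypes. By sign alone, tuft markers were higher in 6 of 6 and proliferation markers lower in 8 of 8 in each genotype. The part of these cell types in the regional differences was not tested. In bulk tissue, fewer cells of a type and less RNA per cell cannot be told apart.

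**Figure D2:**
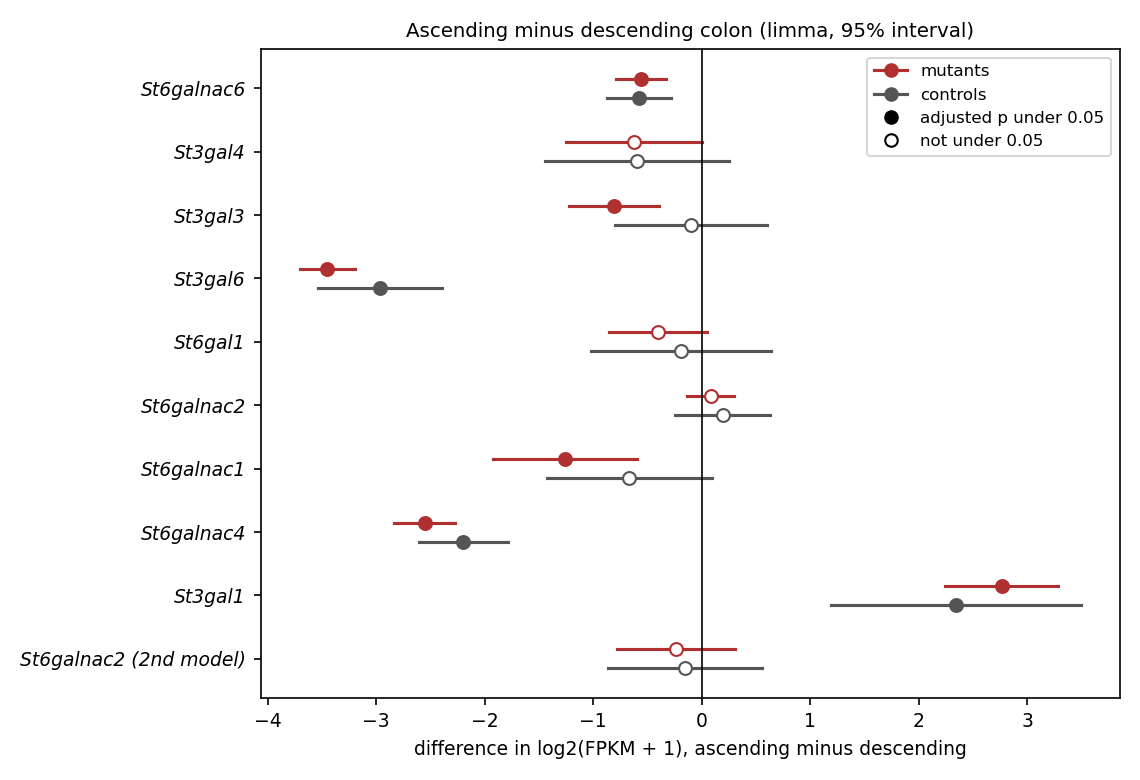
Difference in log2(FPKM + 1), ascending minus descending, for the 10 tested entries, with 95% intervals, in mutants above and controls below; filled points passed at adjusted p under 0.05. St3gal6 and St6galnac4 lie far below 0 and St3gal1 far above 0 in both genotypes.

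St6galnac1 separated the cages. In the ascending colon of cage A it was listed at 0 in all 5 libraries, against 2.42 to 14 FPKM (median 6.23) in the 10 libraries of cages B and C. In the descending colon of cage A it was at 0.25 FPKM in mutant A1 and at 0 in the other 4 libraries, against 6.35 to 47.5 FPKM (median 22.6) in cages B and C. No library of cage A reached any library of the other cages, and mutants and controls shared the pattern. Such a separation, lower in cage A, held for 0.673% of genes in the ascending and 0.573% in the descending colon. The other cages overlapped each other, with 4.56 to 13.4 FPKM in cage C and 2.42 to 14 FPKM in cage B in the ascending colon. A single read of the gene is worth an estimated 0.06 to 0.29 FPKM in cage A, so a value of 0.00 lies below what 1 read would give.

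The moderated F test over the 3 cages gave F = 52.5 in the ascending colon (limma adjusted p = 2.21e-04, rank 7 of 12178 genes) and F = 86.1 in the descending colon (adjusted p = 4.42e-05, rank 2 of 12219). One of 10 tested members passed in each region, St6galnac1 both times, against 1.32% of genes in the ascending and 0.597% in the descending colon. Genes whose cage A libraries all lay below those of cages B and C in both regions made up 0.0324% of 12353, namely St6galnac1, Ceacam2, 9530053A07Rik and Lpo, which were named after their values were seen. No gene lay above in the same way. The 13 goblet cell markers summed to 8924 to 12590 FPKM in the ascending colon of cage A, against 3195 to 12160 in cage B and 3733 to 6598 in cage C, and to 3652 to 12820 FPKM in the descending colon of cage A, against 4389 to 6136 in cage B and 2854 to 6995 in cage C. Their part in the cage difference was not tested. The neighbouring gene St6galnac2 was at 8.30 to 28.7 FPKM in cage A and 6.27 to 17.4 FPKM in cages B and C. Cage, strain label and age cannot be told apart here for cage A.

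**Figure D3:**
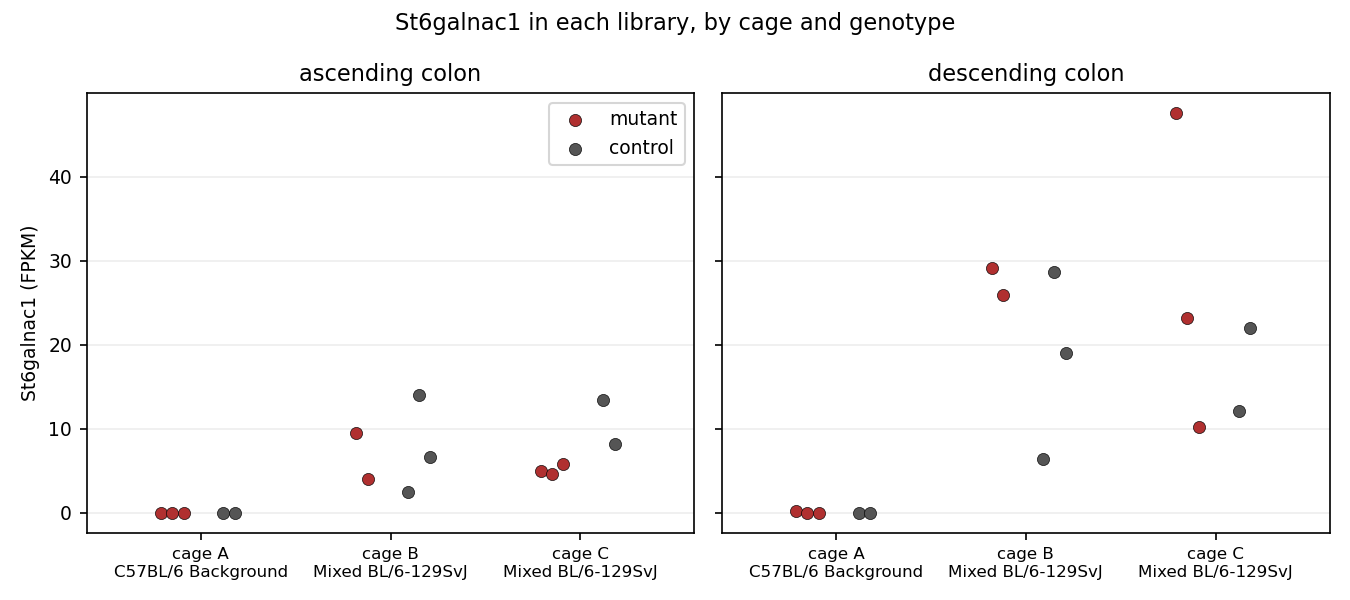
St6galnac1 in FPKM in each library, by cage, with ascending colon left and descending colon right, and mutants left of controls. Cage A is at 0 to 0.25 FPKM and cages B and C are at 2.42 to 47.5 FPKM.

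Ascending control B1 and descending control A2 shared a pattern in part of the sialyltransferases. B1 had 39.7 FPKM of St3gal1, 87.6 of St3gal3, 260.8 of St3gal4 and 10.9 of St3gal6, the highest of its group in each, and 4.10 of St6gal1, the lowest. A2 had 18.1 FPKM of St3gal1, 64.6 of St3gal3 and 251.9 of St3gal4, the highest of its group, and 4.74 of St6gal1, the lowest. Its St3gal6, at 54.7 FPKM, was below descending control C2 at 57.0 FPKM. St6galnac6 was also highest of its group in both libraries, and St6galnac4 was highest in B1 and not in A2. St6galnac1 was lower in B1 than in any other library of cages B and C. St6galnac2 did not share the pattern, being lowest of its group in B1 and highest in A2. The second model of St6galnac2 was highest in A2 and not in B1. For St3gal3 the other ascending controls were at 18.2 to 25.8 FPKM and the other descending controls at 20.1 to 29.6 FPKM. Smooth muscle markers summed to 429.7 FPKM in B1, against 29.1 to 110.7 FPKM in the other ascending controls, but to 146.6 FPKM in A2, within the range of its group. The part of muscle in the pattern was not tested. Without both libraries, 6 entries passed between regions in controls in place of 4, with St3gal4 at -0.82 (limma adjusted p = 0.00902) and St6galnac2 at 0.45 (adjusted p = 0.0263) added. Over all genes 5348 of 12440 passed in that fit, against 4744 of 12515 with all libraries.

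**Figure D4:**
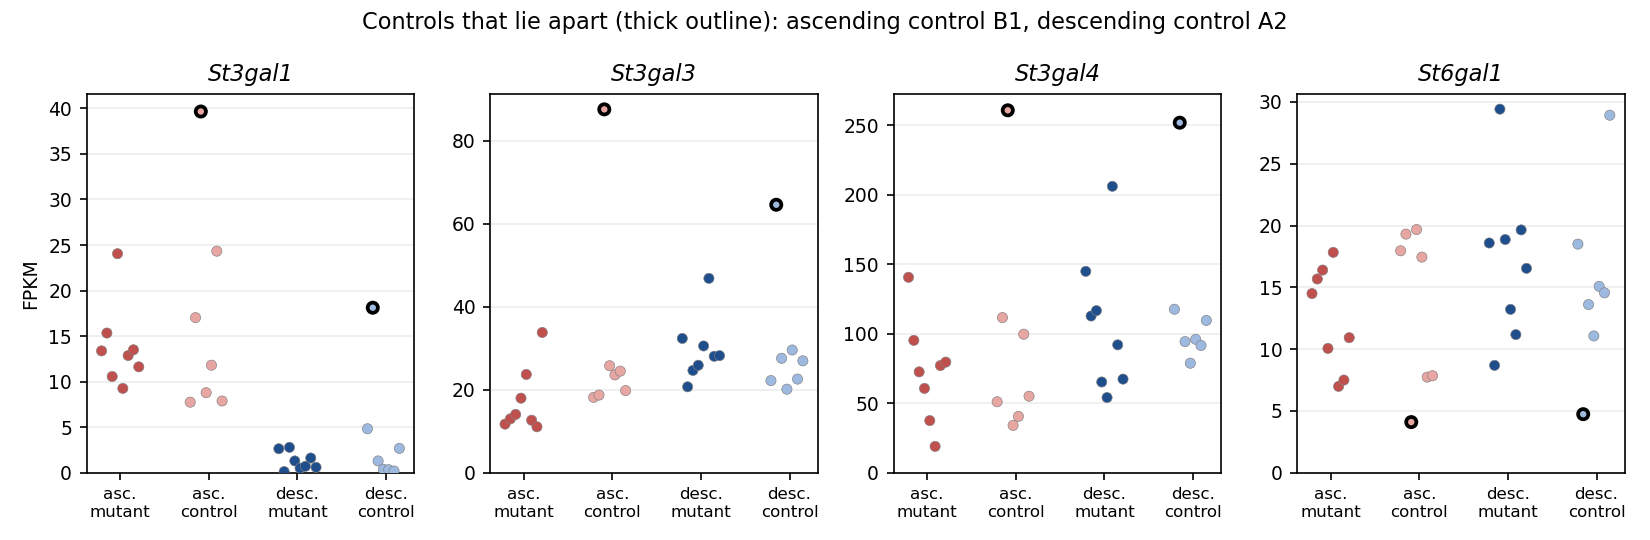
FPKM of St3gal1, St3gal3, St3gal4 and St6gal1 in each library, mutants left of controls within each region, with ascending control B1 and descending control A2 outlined. Both are highest of their group for the first 3 genes and lowest for St6gal1.

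Deletion of the O-glycan core enzymes was compared with controls in each region, and no member passed. In both regions 0 of 10 entries passed (limma adjusted p under 0.05), against 0% of 12178 genes in the ascending and 0% of 12219 genes in the descending colon. At an unadjusted p under 0.05 there were 3 entries in the ascending colon, against 11.5% of genes, and 0 in the descending colon, against 2.19%. The 3 were St6galnac4, at 1.57 to 2.40 FPKM in mutants and 2.28 to 5.66 FPKM in controls (-0.42 ± 0.14, limma adjusted p = 0.316), St6galnac2, at 9.13 to 12.1 FPKM in mutants and 7.77 to 17.4 FPKM in controls (-0.34 ± 0.13, adjusted p = 0.367), and St3gal6, at 2.11 to 4.08 FPKM in mutants and 2.43 to 10.9 FPKM in controls (-0.54 ± 0.25, adjusted p = 0.434). The groups overlapped for each. Differences were negative in 8 of 10 entries, which include both overlapping models of St6galnac2. The median was -0.32 against -0.05 over all genes, of which 38.7% had a positive difference. Smooth muscle markers, 8 of 8 lower on average in mutants with a median of -1.12, and fibroblast markers, 8 of 8 with a median of -0.99, moved in the same direction. So did the tested stem cell (7 of 7, median -0.32), macrophage (6 of 6, -0.75) and T cell markers (6 of 6, -0.47). Proliferation markers were higher in 8 of 8 and colonocyte markers in 10 of 12. In descending mutants, smooth muscle (8 of 8, median -0.674), fibroblast (8 of 8, -0.448) and stem cell markers (7 of 7, -0.385) were lower too. Proliferation markers were higher there in 6 of 8 and colonocyte markers in 9 of 11. Of the sialyltransferase entries, 6 of 10 were lower in descending mutants, with a median of -0.105. The part of these lists was not tested.

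St6galnac2 passed in the ascending colon under 2 alternatives, with array quality weights (-0.42, limma adjusted p = 0.0272) and without cage B (-0.52, adjusted p = 0.0266), where 746 and 652 genes passed in all. In the descending colon every adjusted p was 0.999, and the largest differences were -0.67 ± 0.43 for St3gal1, -0.41 ± 0.39 for the second model of St6galnac2, -0.31 ± 0.23 for St3gal4 and 0.45 ± 0.32 for St6galnac1. The 95% interval of the ascending difference was -0.13 to 0.34 for St6galnac6 and -1.18 to 0.66 for St3gal4. No member passed the test of a genotype effect that differs between regions (0 of 10, against 0% of 12353 genes, and 0 of 10 at an unadjusted p under 0.05, against 1.60%), or the test of a genotype effect that differs among cages (0 of 10 in each region, against 0% of genes in the ascending and 0.00818% in the descending colon). At an unadjusted p under 0.05 the test among cages gave 1 entry in the ascending colon, against 10.4% of genes, and 3 in the descending colon, against 4.42%.

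**Figure D5:**
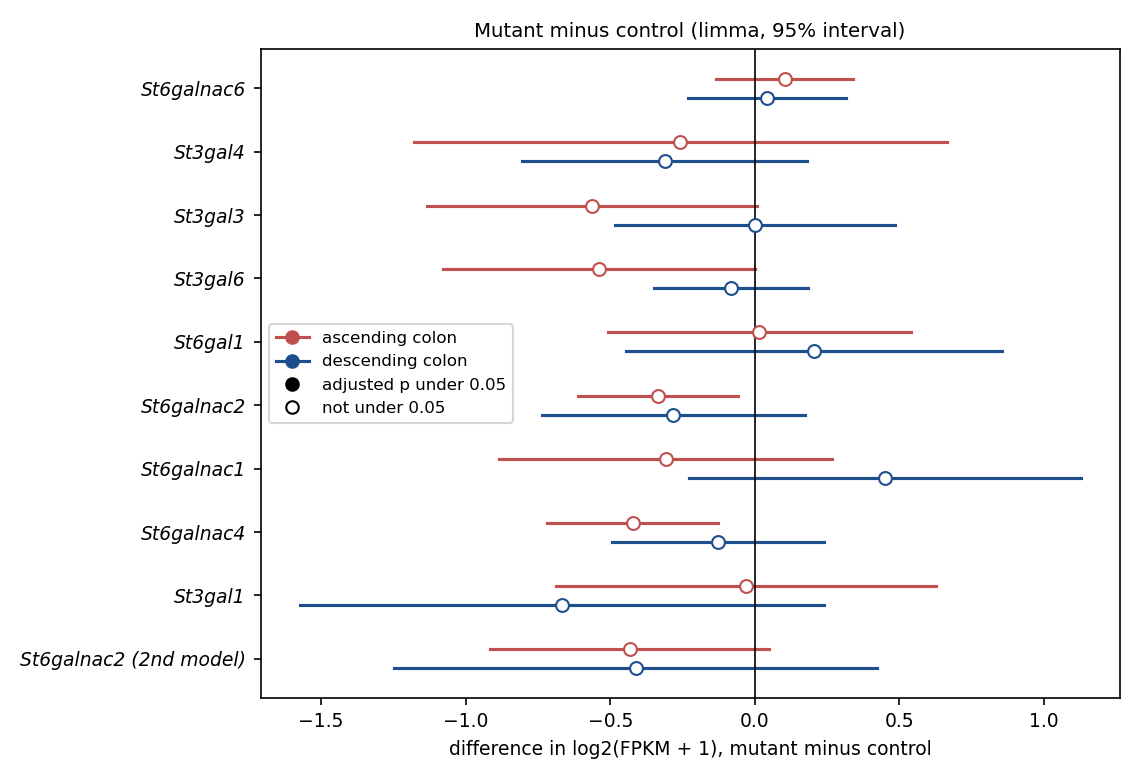
Difference in log2(FPKM + 1), mutant minus control, with 95% intervals, in the ascending colon above and the descending colon below. All points are open, since none passed at adjusted p under 0.05.

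Other enzymes of sialic acid metabolism were compared between regions, where 44.0% of all genes passed in mutants and 37.9% in controls. Of 10 further sialyltransferases 5 were in the table and 3 were tested, and St8sia5, which extends ganglioside chains, passed. It was at 0 to 0.07 FPKM in ascending mutants and 3.55 to 19.1 FPKM in descending mutants, and at 0 to 0.12 FPKM in ascending controls and 2.05 to 28.5 FPKM in descending controls (-3.58 ± 0.22 in mutants, limma adjusted p = 1.42e-09). Of 5 tested genes that make and activate sialic acid, 3 passed as lower and 1 as higher in the ascending colon in both genotypes. Over all genes the shares were 29.7% lower and 14.3% higher in mutants and 25.1% and 12.8% in controls. Gne, which starts the synthesis, averaged 47.2 ± 9.07 FPKM in ascending mutants and 99.4 ± 11.3 FPKM in descending mutants (SD, n = 8 each), and Nans, a later step, averaged 37.0 ± 8.57 FPKM in ascending mutants and 126.2 ± 27.1 FPKM in descending mutants. Cmas, which activates sialic acid, differed by -0.67 ± 0.10 in mutants and -0.69 ± 0.09 in controls. Cmah, which makes the glycolyl form, was higher by 1.42 ± 0.20 in mutants and 1.30 ± 0.27 in controls. The sialic acid transporter Slc35a1 differed by 0.01 ± 0.19 in mutants and -0.04 ± 0.11 in controls.

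Of 8 tested genes that remove or modify sialic acid, 1 passed as higher and 3 as lower in the ascending colon of mutants, and 1 and 2 in controls. These 4 and 3 of 8 are near the shares of 44.0% and 37.9% over all genes. Neu1, a lysosomal sialidase, was higher (1.42 ± 0.17 in mutants, limma adjusted p = 5.90e-06), and Neu3, a sialidase of the membrane, was lower (-2.64 ± 0.15, adjusted p = 5.85e-10), as was Casd1, which O-acetylates sialic acid (-1.44 ± 0.11, adjusted p = 2.18e-08). Of the enzymes that build the acceptor chains, 5 of 14 tested passed as higher and 4 as lower in mutants. In controls 5 of 15 passed as higher and 3 as lower, against the same shares. B3gnt7, which extends lactosamine chains, averaged 5.26 ± 2.68 FPKM in ascending mutants and 317.5 ± 68.8 FPKM in descending mutants. Gcnt3, which branches O-glycans, averaged 245.3 ± 36.0 FPKM in ascending mutants and 26.0 ± 4.04 FPKM in descending mutants. No member of these lists passed between genotypes.

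Within regions, the genes whose levels ran most closely with a member were read from the 30 libraries after the regional mean was removed, among 11392 genes, as a description. For St3gal3 it was Slc8b1 (r = 0.87), for St6galnac1 Pnmal2 (r = 0.88), for St3gal1 Saa3 (r = 0.85), for St6galnac6 Aqp4 (r = 0.77), for St3gal6 Sncg (r = 0.74) and for St6galnac4 Dmpk (r = 0.72). Among members, St3gal4 and St3gal6 were closest (r = 0.74), apart from the overlapping models of St6galnac2 (r = 0.78). The libraries share cages and the 2 controls that stood apart.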

How the data were processed

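Total RNA of 30 colon pieces was measured as FPKM, computed by the authors and deposited with 2 decimals. The tools named are bcl2fastq 2.17, STAR and DESeq2, and the build GRCm38, per the submitters' processing notes. The counter, its strand setting and the gene lengths are not stated by the sources used. Depth was estimated from the spacing of low values and entered no test. Positions are from GENCODE M21, where 14472 of 14475 identifiers were found.

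Values were taken as log2(FPKM + 1), so differences of low genes are understated. A gene entered a fit when its libraries averaged 0.5 FPKM or more. Each fit used limma 3.58.1 in R 4.3.3 with a trend on the mean. Cage was a covariate in the tests between genotypes and between regions, and genotype was the covariate in the tests between cages. The test of a genotype effect that differs among cages used genotype, cage and their interaction. The test of one that differs between regions used region by cage and region by genotype. A gene passed at a two-sided Benjamini-Hochberg adjusted p under 0.05 over all genes kept. The tests were tested on simulated data. A simulated log2 difference of 0.5 between genotypes was recovered in 52.2% of changed genes in the ascending and 37.3% in the descending colon. For a simulated difference of 1 these shares were 94.0% and 80.6%. For the genotype effect that differs between regions, 17.9% were recovered at 0.5 and 70.1% at 1. Members and lists were chosen with earlier results of these data known. All 10 members are named; of each list up to 4 genes with the smallest adjusted p, and for members that passed the most alike genes by Pearson r. Alternatives were a pseudocount of 0.1, other filters, scaling, array weights, no cage covariate, 1 fit of all libraries, leaving out libraries or cages, and a replicate block. The fit without both controls that stood apart (ascending B1, descending A2) was chosen after seeing the data.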

Additional observations from a re-analysis of the deposited data

Results flagged for a closer look

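In 44 groups of libraries examined, 3 values of members lay far from the rest of their group, and chance gives about 1 in 20 groups. St3gal3 was at 87.55 FPKM in ascending control B1, against 18.2 to 25.8 FPKM in the other ascending controls. St3gal3 was at 64.57 FPKM in descending control A2, against 20.1 to 29.6 FPKM in the other descending controls. St3gal4 was at 251.86 FPKM in descending control A2, against 78.8 to 117.7 FPKM in the others.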

How the results depend on the processing

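The regional differences of St3gal6 and St6galnac4 kept their direction and passed in both genotypes under each alternative run, as did that of St3gal1 in mutants. The count of sialyltransferases that passed between genotypes in the ascending colon was 0, and 1 with array quality weights and 1 without cage B. Over all genes 746 passed with the weights, 652 without cage B and 170 without ascending mutant B1, against 0. Between cages in the ascending colon the count was 1, and 2 with the weights (St6gal1, limma adjusted p = 0.00319), and leaving out each library gave 1 to 2, with St6gal1 added without ascending control B1 (adjusted p = 0.00717). There 1579 of all genes passed with the weights and 362 without that control, against 161 in the main fit. In the descending colon the count between cages was 1, and 2 with the weights (St3gal4, limma adjusted p = 0.0274), where 973 of all genes passed, against 73 in the main fit. The causes were not tested. The weights stopped before convergence in a fit.

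Differences that changed sign were small and did not pass before or after. Between genotypes in the ascending colon the weights gave 0.008 for St3gal4, 0.127 for St3gal1 and -0.088 for St6gal1. Without cage B, St3gal1 was at 0.008 and St6gal1 at -0.083, and without cage C at 0.025 and -0.020. In the descending colon the weights gave 0.074 for St6galnac4. Without cage A, St6galnac4 was at 0.145, St6galnac2 at 0.068, its second model at 0.116, St3gal1 at 0.040 and St6gal1 at -0.074. Without cage B, St6galnac6 was at -0.046 and St3gal3 at -0.069, and St3gal3 was at -0.209 without cage C. Between regions, the second model of St6galnac2 was at 0.149 in mutants without cage C. In controls, St3gal3 was at 0.071 with median-of-ratios scaling and 0.269 without cage A. The second model of St6galnac2 was at 0.170 without cage A and 0.063 without both controls that stood apart, and St6gal1 at 0.248 without cage C.

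Leaving out each library gave, between genotypes in the ascending colon, -0.482 to 0.034 for St3gal4, -0.194 to 0.166 for St3gal1 and -0.187 to 0.110 for St6gal1. In the descending colon it gave -0.215 to 0.011 for St6galnac4, -0.012 to 0.107 for St6galnac6, -0.098 to 0.259 for St3gal3 and -0.085 to 0.403 for St6gal1. Between regions in controls it gave -0.379 to 0.158 for St3gal3, -0.402 to 0.038 for the second model of St6galnac2 and -0.493 to 0.048 for St6gal1.

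The replicate numbers were not taken as pairs, since not every pair had deviations correlated over 0.1. Deviations were taken from the mean of the libraries of the same region, genotype and cage. Of 15 pairs between regions 4 did (r from -0.258 to 0.358), and of 12 between genotypes 6 did (-0.176 to 0.383). A library was most alike its own number in 4 of the 15 and in 5 of the 12. The 4 between regions were mutant A1 (r = 0.131) and all 3 mutants of cage C (0.185 to 0.358). Another 6 of the 15 come from cages with 2 libraries a side, where both pairs carry 1 value by construction, so the pairs are not independent. With the replicate block, 6 entries passed between regions in mutants and 5 in controls, where St6galnac1 was added (-0.67, limma adjusted p = 0.0418), and 0 between genotypes in each region. Over all genes 5219 of 12203 passed between regions in mutants and 4236 of 12515 in controls with this block. Depth limits the low values of the 3 ascending mutants of cage A most.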
